A study of Mus musculus with 4 samples.

Results

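The genes described here are 10 regulators of the step from G1 into S phase: the CDK inhibitor genes Cdkn2a, Cdkn2b, Cdkn2c, Cdkn2d, Cdkn1b and Cdkn1c, the pocket protein genes Rb1, Rbl1 and Rbl2, and the cyclin D1 gene Ccnd1. They were chosen by name, with the probe set of highest mean taken for each gene among probe sets that carry a single symbol. All 10 were found among 19938 named genes, and all 10 were bright enough to be among the 13956 genes tested (mean over the 4 arrays at or above log2 4.27, the 30th percentile of genes). The cells were 2 mouse tumour lines, 365 and 167, each started from a Smarcb1-deficient soft tissue tumour (labelled MRT) of a Smarcb1-heterozygous, p53 null mouse of C57BL6/SV129J background. For each line 1 culture received Smarcb1 in the pMIG retrovirus and 1 received empty pMIG, and total RNA was taken 3 days later and run on 1 whole-transcript array. All 4 arrays therefore share the lack of p53 and the retroviral infection, and the labels do not say whether the lines are clonal or whether infected cells were sorted.

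D-type cyclins bind CDK4 and CDK6 and start the phosphorylation of RB, which then lets go of E2F transcription factors and opens the way into S phase. The INK4 proteins (Cdkn2a to Cdkn2d) block CDK4 and CDK6, whereas p27 (Cdkn1b) and p57 (Cdkn1c) mainly block CDK2 complexes. The pocket proteins RB, p107 (Rbl1) and p130 (Rbl2) hold E2F target genes silent. In human rhabdoid tumour cells, return of SMARCB1 is known to raise p16INK4A, lower cyclin D1 and arrest cells in G1, which is the background to the comparison of the vectors here.

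The vector labels were checked on Smarcb1 itself, which encodes a core part of the SWI/SNF remodeller of chromatin. Its signal was log2 9.61 in line 365 and 7.83 in line 167 with the Smarcb1 vector, against 6.01 in line 365 and 4.61 in line 167 with the empty vector. The exons that its probes cover are not stated, so vector and cellular transcript are not separated. Of the cell type markers, 8 of 8 mesenchymal ones lay above the filter level on average, as did 5 of 6 epithelial, 3 of 5 leukocyte, 2 of 4 endothelial, 3 of 5 skeletal muscle and 6 of 6 neural ones. Several of the markers counted lay close to that level of log2 4.27. Over the arrays Sox2 was at 4.21 to 4.39, Olig2 at 4.23 to 4.44, Gfap at 4.31 to 4.60 and Myod1 at 4.30 to 4.71. The mesenchymal filament gene Vim was at log2 13.27 to 13.53 on every array, but 4 of the 8 mesenchymal markers differed between the lines past the test. Among this list the collagen gene Col3a1 was at 6.24 (Smarcb1) and 6.14 (empty vector) in line 365, and at 11.65 (Smarcb1) and 11.12 (empty vector) in line 167. The receptor gene Pdgfrb was at 5.03 (Smarcb1) and 5.12 (empty vector) in line 365, and at 9.36 (Smarcb1) and 8.95 (empty vector) in line 167. Col1a1 and Col1a2 were also lower in line 365 with both vectors. S100a4 went the other way, at 10.74 (Smarcb1) and 10.76 (empty vector) in line 365, and at 10.13 (Smarcb1) and 9.86 (empty vector) in line 167. For Vim, Pdgfra and Thy1 the sign of the line difference changed with the vector. In line 167 the mean of the 8 mesenchymal markers was 9.94 with Smarcb1 and 8.98 with empty vector. In line 365 it was 7.71 with Smarcb1 and 7.66 with empty vector. Col1a1 was at 10.56 (Smarcb1) and 7.91 (empty vector) in line 167, and at 6.41 (Smarcb1) and 6.38 (empty vector) in line 365. Vim alone of this list was lower with Smarcb1 in line 167 (13.30 against 13.53). The pan-leukocyte gene Ptprc, the endothelial gene Pecam1, the epithelial gene Epcam and the muscle gene Myog all had means below the filter level. The other 5 epithelial markers were above it, and Krt19, a keratin gene, was at 8.27 in line 365 and 6.52 in line 167 with Smarcb1, against 5.59 in line 365 and 4.67 in line 167 with empty vector. The rest of that list did not follow Krt19 to this extent. In line 365, Krt18 was lower with Smarcb1 (5.25 against 5.64), and Cdh1 (4.77 against 4.70) and Krt8 (6.01 against 5.86) were little changed. The neuronal tubulin gene Tubb3 was at 7.20 in line 365 and 6.80 in line 167 with Smarcb1, against 4.86 in line 365 and 5.05 in line 167 with empty vector. Cdh5, the endothelial cadherin gene, was nevertheless at 8.29 (Smarcb1) and 9.06 (empty vector) in line 365, and at 3.64 (Smarcb1) and 3.78 (empty vector) in line 167. The lysosomal macrophage marker Cd68 was at 8.18 in line 365 and 8.69 in line 167 with Smarcb1, against 9.95 in line 365 and 9.32 in line 167 with empty vector. The other leukocyte markers above the filter level did not share this fall in both lines. Csf1r was higher with Smarcb1 in both lines (5.19 against 4.73 in line 365, and by less in line 167). Cd3e was lower with Smarcb1 in line 365 (5.06 against 5.22) and higher in line 167 (4.95 against 4.76). The part of these marker differences in the results was not tested. In RNA from whole cultures, fewer cells expressing a gene and less RNA of it per cell cannot be told apart.

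At 3 days after infection 0 of these 10 genes passed the test of Smarcb1 against empty vector. The vector effect was fitted with limma across both lines, with the cell line as a term, and p-values were adjusted by Benjamini-Hochberg over all 13956 tested genes. That test called 0.0645% of all tested genes (9 of 13956), and at an unadjusted p below 0.05 it held 0 of the 10 and 11.6% of all genes. The median absolute vector effect was 0.07 on the log2 scale over the 10 genes and 0.17 over all tested genes. This effect averages the lines, and in 8 of the 10 genes the changes of the lines had opposite signs. In single lines the largest changes were 1.09 for Cdkn2c and 0.66 for Cdkn1b, both in line 365. The lines differed in Cdkn2b and Ccnd1 past the test, which is 2 of the 10, in a comparison that called 10.9% of all tested genes. The replicates of that comparison were the 2 vector cultures of each line, so spread between tumours or between like cultures was not measured. The median absolute line difference was 0.53 over the 10 genes and 0.28 over all tested genes.

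**Figure D1:**
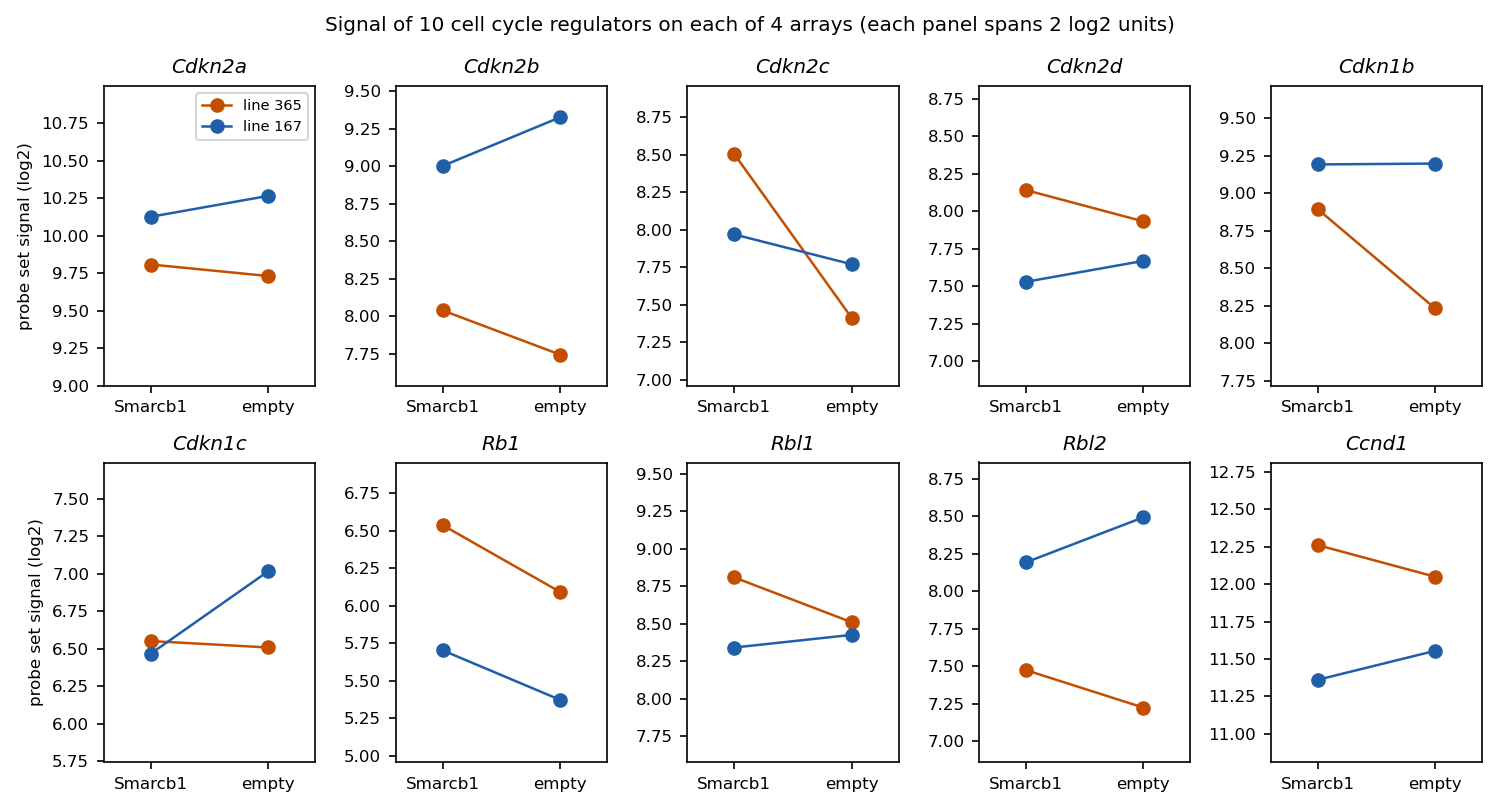
Each panel shows 1 gene, with the probe set signal (log2) on the vertical axis and the vector on the horizontal axis. Every point is 1 array and the connecting lines join the arrays of 1 cell line, orange for line 365 and blue for line 167. The colours stay apart in 8 panels and cross in those of Cdkn2c and Cdkn1c.

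Among the INK4 inhibitors, Cdkn2a encodes p16Ink4a and, from another first exon and reading frame, p19Arf, which stabilises p53. Its probe set 10514340 is annotated with transcripts of both start sites, so the signal does not separate p16Ink4a from p19Arf. Cdkn2a was at log2 9.81 in line 365 and 10.13 in line 167 with Smarcb1, against 9.73 in line 365 and 10.26 in line 167 with empty vector. Line 167 was the higher line with both vectors, and the vector groups overlapped. The fitted vector effect was -0.03 ± 0.13 (moderated SE, 95% interval -0.37 to 0.30, limma adjusted p = 0.946). The interval thus reaches no further than 0.37 either way on the log2 scale. The lines differed by -0.43 ± 0.13 (line 365 minus line 167, limma adjusted p = 0.105), which did not pass.

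Cdkn2b, the neighbour of Cdkn2a on chromosome 4, encodes p15Ink4b, an inhibitor induced by TGF-beta in many cells. The signal was log2 8.04 in line 365 and 9.00 in line 167 with Smarcb1, against 7.74 in line 365 and 9.33 in line 167 with empty vector. Both arrays of line 365 lay below both arrays of line 167, and the vector groups overlapped. Line 365 was lower by 1.27 ± 0.21 on the log2 scale, which is 0.414 times line 167 (fitted difference -1.27, limma adjusted p = 0.0300). This was the widest line difference of the 10 genes, and it was -0.96 with Smarcb1 and -1.58 with empty vector. The vector effect was -0.01 ± 0.21 (95% interval -0.55 to 0.52), made of 0.29 in line 365 and -0.32 in line 167.

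The promoter windows of this locus are shown because 2 start regions feed the single Cdkn2a signal and the adjacent Cdkn2b has the widest line difference, and the window of Rbl1 is shown because its gene is a textbook E2F target. They come from RefSeq (GRCm38.p6), run from 250 bases before to 50 after the start site, and lie on the minus strand, 5′ to 3′. Capitals mark an E2F-type motif, searched as TTTCCCGC, TTTCGCGC, TTTGCCGC and TTTGGCGC on both strands. The first window, chr4:89294570-89294869, is the upstream start region of Cdkn2a, the one of p19Arf, and the second, chr4:89282143-89282442, is the downstream one, of p16Ink4a. The third is chr4:89310983-89311282 (Cdkn2b) and the fourth is chr2:157204485-157204784 (Rbl1).
Cdkn2a, upstream start: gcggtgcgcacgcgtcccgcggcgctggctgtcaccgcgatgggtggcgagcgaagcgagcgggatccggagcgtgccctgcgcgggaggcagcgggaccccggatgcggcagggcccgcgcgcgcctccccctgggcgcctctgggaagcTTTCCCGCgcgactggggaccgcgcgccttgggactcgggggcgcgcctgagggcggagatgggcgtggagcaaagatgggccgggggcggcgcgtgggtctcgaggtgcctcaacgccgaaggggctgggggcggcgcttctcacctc
Cdkn2a, downstream start: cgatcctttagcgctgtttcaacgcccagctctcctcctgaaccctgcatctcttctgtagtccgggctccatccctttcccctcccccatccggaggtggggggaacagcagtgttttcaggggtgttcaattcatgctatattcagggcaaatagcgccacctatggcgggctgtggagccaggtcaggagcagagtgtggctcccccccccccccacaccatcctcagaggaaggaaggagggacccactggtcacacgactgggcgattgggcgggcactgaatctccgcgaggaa
Cdkn2b: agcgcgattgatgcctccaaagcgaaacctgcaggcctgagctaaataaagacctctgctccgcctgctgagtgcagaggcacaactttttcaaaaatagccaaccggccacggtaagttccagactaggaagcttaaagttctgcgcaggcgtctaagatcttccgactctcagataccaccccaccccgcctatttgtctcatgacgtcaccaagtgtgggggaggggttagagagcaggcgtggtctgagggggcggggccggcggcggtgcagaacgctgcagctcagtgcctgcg
Rbl1: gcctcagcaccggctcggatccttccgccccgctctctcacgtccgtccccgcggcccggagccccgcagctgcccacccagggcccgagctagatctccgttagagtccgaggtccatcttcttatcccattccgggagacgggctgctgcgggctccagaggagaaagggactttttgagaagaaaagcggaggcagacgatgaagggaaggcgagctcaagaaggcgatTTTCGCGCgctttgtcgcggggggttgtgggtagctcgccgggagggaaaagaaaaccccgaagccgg

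The motif stood once in the upstream Cdkn2a window, from 99 bases before the start site, and once in the Rbl1 window, from 18 bases before it. RefSeq windows were matched for 7 of the 10 genes (not Cdkn1c, Rb1 and Ccnd1), 9 windows in all, and 2 of the 9 held the motif. Among all 32851 windows 2.26% held it, and among 36 windows of a list of E2F target genes 38.9% did. The windows also differ in base composition, with a median of 22 CG dinucleotides in those of the 10 genes and 7 over all windows. A match here is a description of these letters, and binding was not measured.

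Cdkn2c encodes p18Ink4c and was the member that stood farthest from its controls. It was at log2 8.51 in line 365 and 7.97 in line 167 with Smarcb1, against 7.41 in line 365 and 7.77 in line 167 with empty vector. Both Smarcb1 arrays lay above both empty-vector arrays, the 1 member of which this holds, where 29% of all tested genes have groups that do not overlap. The change was 1.09 in line 365 (2.13-fold) and 0.20 in line 167 (1.15-fold). Line 365 was the lower line with empty vector (difference -0.36) and the higher one with Smarcb1 (0.54). The fitted vector effect was 0.65 ± 0.26 (95% interval -0.04 to 1.33, limma adjusted p = 0.451) and did not pass. A change of at least 2-fold was seen in 1 of the 10 genes in line 365, where 4.01% of tested genes had it, and in 0 of the 10 in line 167, where 4.89% had it.

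Cdkn2d encodes p19Ink4d, the fourth INK4 protein. It was at log2 8.14 in line 365 and 7.53 in line 167 with Smarcb1, against 7.93 in line 365 and 7.67 in line 167 with empty vector. Line 365 was the higher line with both vectors. The line difference was 0.44 ± 0.18 (limma adjusted p = 0.192) and the vector effect 0.03 ± 0.18 (limma adjusted p = 0.958), and neither passed. So within the INK4 family, line 365 had the lower values of Cdkn2a and Cdkn2b and the higher values of Cdkn2d with both vectors, and 1 of these 3 line differences passed.

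Of the CIP/KIP inhibitors, Cdkn1b encodes p27, which is controlled to a large part by protein turnover that arrays do not see. The signal of its brighter probe set was log2 8.89 in line 365 and 9.19 in line 167 with Smarcb1, against 8.23 in line 365 and 9.20 in line 167 with empty vector. The line 365 empty-vector array was the low one, and the other 3 arrays lay within 0.30 of each other. The change with Smarcb1 was 0.66 in line 365 (1.58-fold) and -0.01 in line 167, with a fitted effect of 0.33 ± 0.21 (limma adjusted p = 0.600). Cdkn1b is the 1 member with a second probe set, 10542317. That probe set gave Smarcb1 minus empty vector of 0.53 (line 365) and -0.40 (line 167). Its line difference had opposite signs with the vectors, at 0.31 with Smarcb1 and -0.61 with empty vector, whereas the first probe set gave -0.30 with Smarcb1 and -0.97 with empty vector. Both probe sets were thus higher with Smarcb1 in line 365, whereas the lower signal of line 365 among the Smarcb1 arrays was seen with the first alone.

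Cdkn1c encodes p57, the imprinted member of this family, expressed from the maternal allele. Its signal was log2 6.55 in line 365 and 6.47 in line 167 with Smarcb1, against 6.51 in line 365 and 7.02 in line 167 with empty vector. Here the line 167 empty-vector array was the high one, and the other 3 lay within 0.08 of each other. The change was 0.04 in line 365 and -0.55 in line 167, with a fitted effect of -0.25 ± 0.23 (limma adjusted p = 0.718).

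Of the pocket proteins, Rb1, the retinoblastoma tumour suppressor gene, had higher values with Smarcb1 in both lines. Its signal was log2 6.54 in line 365 and 5.70 in line 167 with Smarcb1, against 6.09 in line 365 and 5.37 in line 167 with empty vector. The changes of 0.44 in line 365 and 0.33 in line 167 were the closest pair among the 10 genes, and the fitted effect of 0.39 ± 0.18 (95% interval -0.10 to 0.87, limma adjusted p = 0.512) did not pass. Line 365 lay above line 167 with both vectors, by 0.78 ± 0.18 or 1.71-fold, and this difference did not pass either (limma adjusted p = 0.0659). The groups of the lines did not overlap, and those of the vectors did.

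Rbl2, the p130 gene, is the pocket protein known from resting cells. The gene stood at log2 7.47 in line 365 and 8.19 in line 167 with Smarcb1, against 7.22 in line 365 and 8.49 in line 167 with empty vector. Both line 365 arrays lay below both line 167 arrays, and line 365 had 0.502 times the signal of line 167 (fitted difference -0.99 ± 0.21). The limma adjusted p of 0.0503 lay just outside the threshold of 0.05, and it lay between 0.0284 and 0.0721 over the other settings tried. The vector effect was -0.03 ± 0.21 (limma adjusted p = 0.973), from 0.25 in line 365 and -0.30 in line 167.

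Rbl1, the p107 gene, is itself an E2F target and is known from cycling cells. Its arrays gave log2 8.81 in line 365 and 8.34 in line 167 with Smarcb1, against 8.51 in line 365 and 8.43 in line 167 with empty vector. The 4 arrays spanned 0.47, the narrowest range of the 10 genes. Line 365 differed by 0.28 ± 0.17 (limma adjusted p = 0.353) and Smarcb1 by 0.11 ± 0.17 (limma adjusted p = 0.843). The pocket protein genes therefore did not stand in the same order between the lines. Rb1 and Rbl1 had the higher values in line 365 and Rbl2 the lower, and 0 of the 3 line differences passed.

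Ccnd1, the cyclin D1 gene, gave log2 12.26 in line 365 and 11.36 in line 167 with Smarcb1, against 12.05 in line 365 and 11.55 in line 167 with empty vector. Both line 365 arrays lay above both line 167 arrays. Line 365 was higher by 0.70 ± 0.13, or 1.62-fold (limma adjusted p = 0.0396). The vector effect was 0.01 ± 0.13 (limma adjusted p = 0.986), the smallest of the 10 in size, with a 95% interval of -0.32 to 0.34. It was made of 0.21 in line 365 and -0.19 in line 167. The line difference ended as a call without the intensity trend (limma adjusted p = 0.0883) and without the vector in the model (0.0552), whereas that of Cdkn2b stayed below 0.05 in every setting with a test (at most 0.0421).

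**Figure D2:**
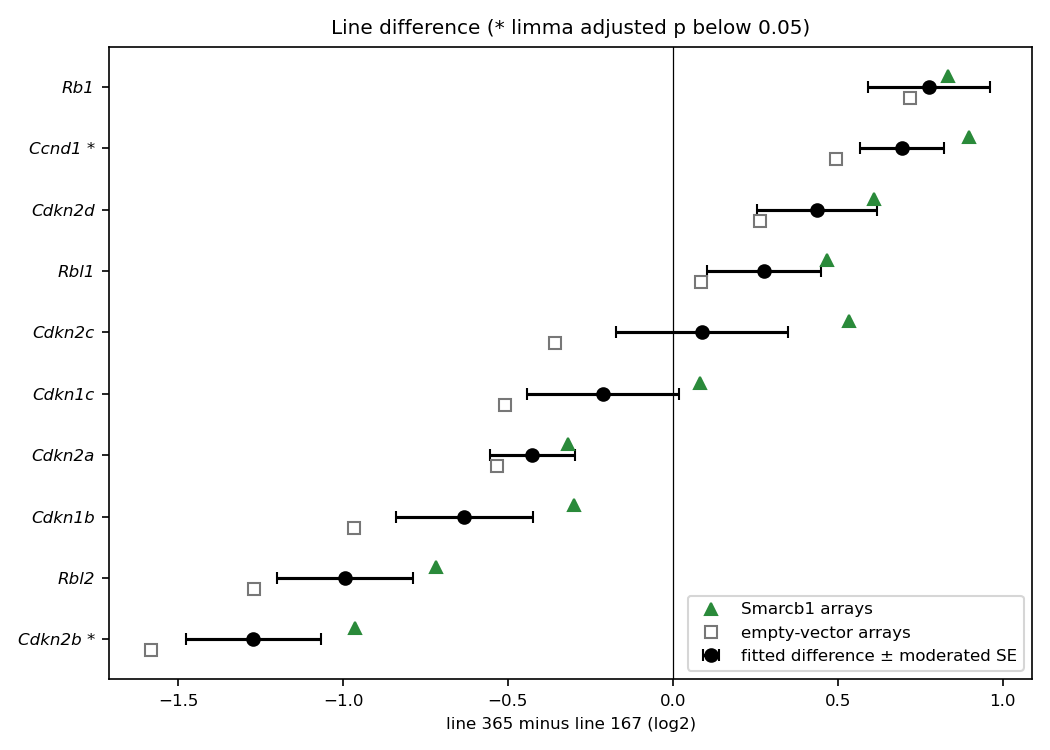
Line 365 minus line 167 (log2, horizontal axis) for each gene: black points are the fitted difference with its moderated SE, green triangles the Smarcb1 arrays alone and open squares the empty-vector arrays alone. Cdkn2b (-1.27) and Ccnd1 (0.70) carry the asterisk of an adjusted p below 0.05, and the triangle lies right of the square for each of the 10 genes.

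How the 4 values of each gene split was also computed, as shares of their sum of squares for the line, the vector and the unequal response of the lines. The line took 94.4% for Cdkn2b, 93.5% for Cdkn2a, 92.8% for Rbl2 and 92.2% for Ccnd1. The median share of the line was 82.8% over the 10 genes and 52.6% over all tested genes. The exceptions were Cdkn2c, with 66.8% for the vector and 1.28% for the line, and Cdkn1c, with 44.5% for the unequal response. In 8 of the 10 genes the arrays of the lines did not overlap, against 55.8% of all tested genes.

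The lines also differed in the sign of the response. With Smarcb1, all 10 genes were higher in line 365, where 49.1% of tested genes were, and 8 of the 10 were lower in line 167, where 57.2% were. Rb1 and Cdkn2c were the genes higher in both lines, and a change in the same sign was found in 60.1% of all tested genes. Higher in line 365 together with lower in line 167 were 8 of the 10 genes and 23% of all tested genes. In all 10 genes the change was more positive in line 365 than in line 167, as in 55.9% of all tested genes. A gap of at least 1 either way was found in 0 of the 10 genes and in 5.36% of all tested genes. The median change of the 10 genes was 0.27 in line 365 and -0.14 in line 167, beside -0.01 in line 365 and -0.06 in line 167 over all tested genes.

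The gap between the responses (line 365 minus line 167) went from 0.11 for Rb1 to 0.89 for Cdkn2c, with a median of 0.48 and 0.05 over all tested genes. With 1 array per line and vector, none of these gaps has a test, and several single changes are close to 0. After another round of quantile normalization Cdkn1c was no longer higher in line 365 and Cdkn1b no longer lower in line 167, leaving 9 genes higher in line 365 and 7 lower in line 167. After cyclic loess the counts were 10 higher in line 365 and 6 lower in line 167, with Cdkn1b and Rbl1 no longer lower there. The gap was above 0 for all 10 genes in both cases, where 51.2% and 50.1% of all tested genes had it.

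**Figure D3:**
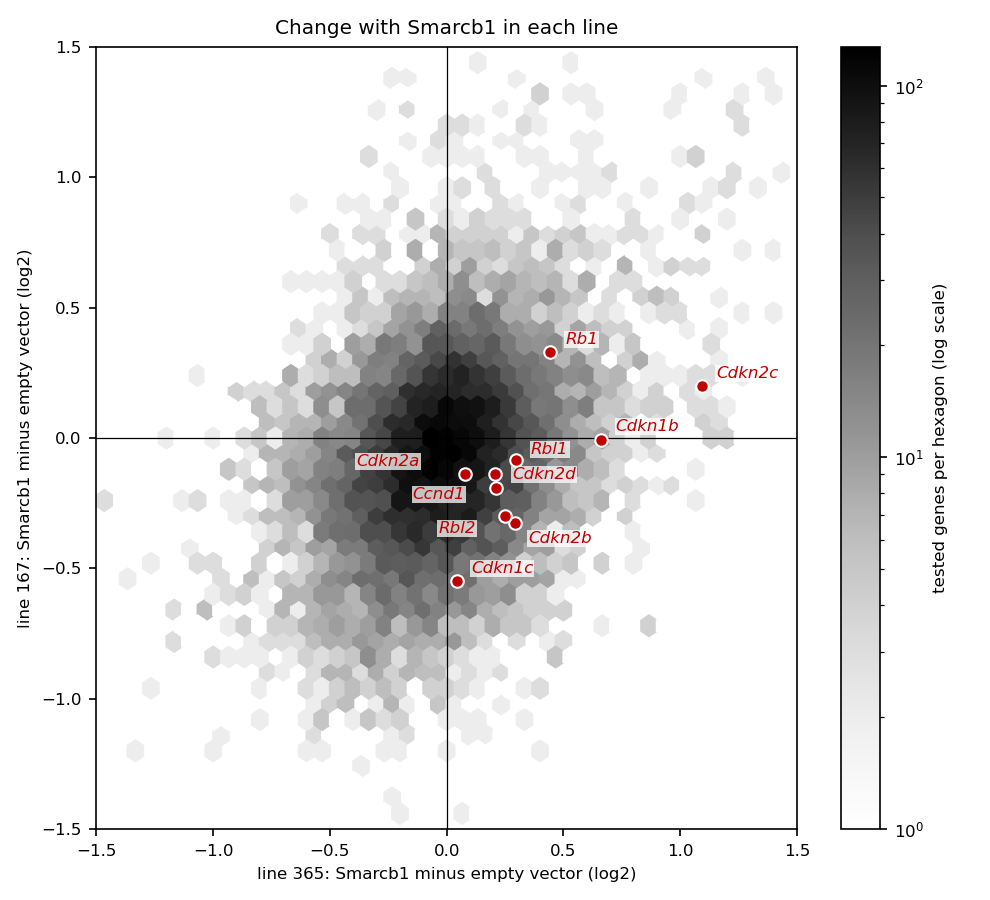
Change with Smarcb1 (Smarcb1 minus empty vector, log2) in line 365 on the horizontal axis and in line 167 on the vertical axis. Red points are the 10 genes and grey hexagons count all tested genes on a log scale, with 438 genes beyond 1.5 on either axis left out. All red points lie right of 0, and Rb1 and Cdkn2c are the ones above 0 on the vertical axis.

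The rest of the G1 pathway was followed in lists written for this purpose, and 0 members of any list passed the test of the vector in either direction. Over 14 genes, G1 cyclins and kinases had a median difference of -0.08 (line 365) and -0.18 (line 167). Ccnd2, the cyclin D2 gene, came nearest to the threshold, with a limma adjusted p of 0.124. It was at log2 11.76 in line 365 and 11.98 in line 167 with Smarcb1, against 12.58 in line 365 and 12.55 in line 167 with empty vector, differences of -0.81 (line 365) and -0.57 (line 167). Its Smarcb1 arrays both lay below its empty-vector arrays, unlike those of Ccnd1. Cdk7, the kinase that activates other CDKs, gave -0.27 in line 365 and -0.25 in line 167 (limma adjusted p = 0.548), and Cdk14 gave 0.21 in line 365 and 1.24 in line 167 (limma adjusted p = 0.458). Between the lines, 2 of the 14 were higher in line 365 and 0 lower, 14.3% called beside 10.9% of all tested genes. These were Cdk6, the INK4-sensitive partner of D cyclins (1.30 ± 0.16, limma adjusted p = 0.0172), and Cdk2, the partner of cyclin E (0.72 ± 0.14, limma adjusted p = 0.0466).

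Over 10 genes, E2F and DP factors, which the pocket proteins bind, had a median difference of -0.15 (line 365) and -0.10 (line 167). E2f2 gave -0.24 in line 365 and -0.83 in line 167 (limma adjusted p = 0.473), and E2f1 gave -0.04 in line 365 and -0.63 in line 167 (limma adjusted p = 0.587). Between the lines 1 was higher in line 365 and 0 lower, 10% called beside 10.9% of all tested genes. That gene was E2f6, a repressor that does not need pocket proteins (0.97 ± 0.16, limma adjusted p = 0.0296). The DP partner gene Tfdp2 had a difference of -1.39 ± 0.32 (limma adjusted p = 0.0621).

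Over 34 genes, E2F targets of S phase entry had a median difference of -0.20 (line 365) and -0.31 (line 167). In 21 of them Smarcb1 arrays were lower in each line, and in 0 of them higher in each line, beside 34.1% of all tested genes lower and 26% higher in each line. Rbl1 and the upstream Cdkn2a window carry the E2F-type motif, and both genes were higher with Smarcb1 in line 365 (Rbl1 0.30, Cdkn2a 0.08) and lower in line 167 (Rbl1 -0.08, though not after cyclic loess, and Cdkn2a -0.14). These signs were not particular to genes with the motif. They were also seen in Cdkn2b (0.29 and -0.32), Cdkn2d (0.21 and -0.14), Cdkn1b (0.66 and -0.01) and Rbl2 (0.25 and -0.30), whose windows lack it. Cdkn2c, also without it, was higher in both lines. Cdc45, a helicase subunit gene, was at log2 8.74 in line 365 and 8.43 in line 167 with Smarcb1, against 9.30 in line 365 and 9.07 in line 167 with empty vector (limma adjusted p = 0.260). The 4 members of smallest p (Cdc45, Cdt1, Orc1 and Mcm5) had a limma adjusted p of 0.260 to 0.348. Rrm2, a subunit of the enzyme that makes deoxynucleotides, was the 1 member that differed between the lines past the test (1.41 ± 0.18 higher in line 365, limma adjusted p = 0.0174). That is 2.94% of the list beside 10.9% of all tested genes. The MuvB core, which with p107 or p130 is part of the DREAM repressor, was listed together with its other partners Mybl1, Mybl2 and Foxm1. These 8 genes had medians of -0.03 (line 365) and -0.21 (line 167). Lin54, the DNA-binding subunit of the core, gave -0.55 in line 365 and -0.42 in line 167 (limma adjusted p = 0.368). RB-binding chromatin proteins had medians of 0.08 (line 365) and -0.07 (line 167) among 12 genes, and the deacetylase gene Hdac1 gave -0.03 in line 365 and -0.51 in line 167 (limma adjusted p = 0.549).

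G2/M and mitosis genes had the same sign of the gap as the 10 genes in nearly all cases. Their median difference was 0.13 (line 365) and -0.37 (line 167) among 24 genes. In 17 of the 24 the value was higher with Smarcb1 in line 365 (49.1% of all tested genes), and in 22 it was lower in line 167 (57.2%). In 23 the difference between vectors was more positive in line 365 (55.9% of all tested genes). The same held in 26 of the 34 E2F targets and 9 of the 12 RB-binding genes, but in 5 of the 14 G1 cyclins and kinases. The part of the G2/M genes in the line-specific signs of the 10 genes was not tested. Of these genes Kif23, a kinesin of cytokinesis, had the smallest adjusted p, with -0.37 in line 365 and -0.38 in line 167 (limma adjusted p = 0.338). Between the lines 0 of the 24 differed past the test, beside 10.9% of all tested genes.

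**Figure D4:**
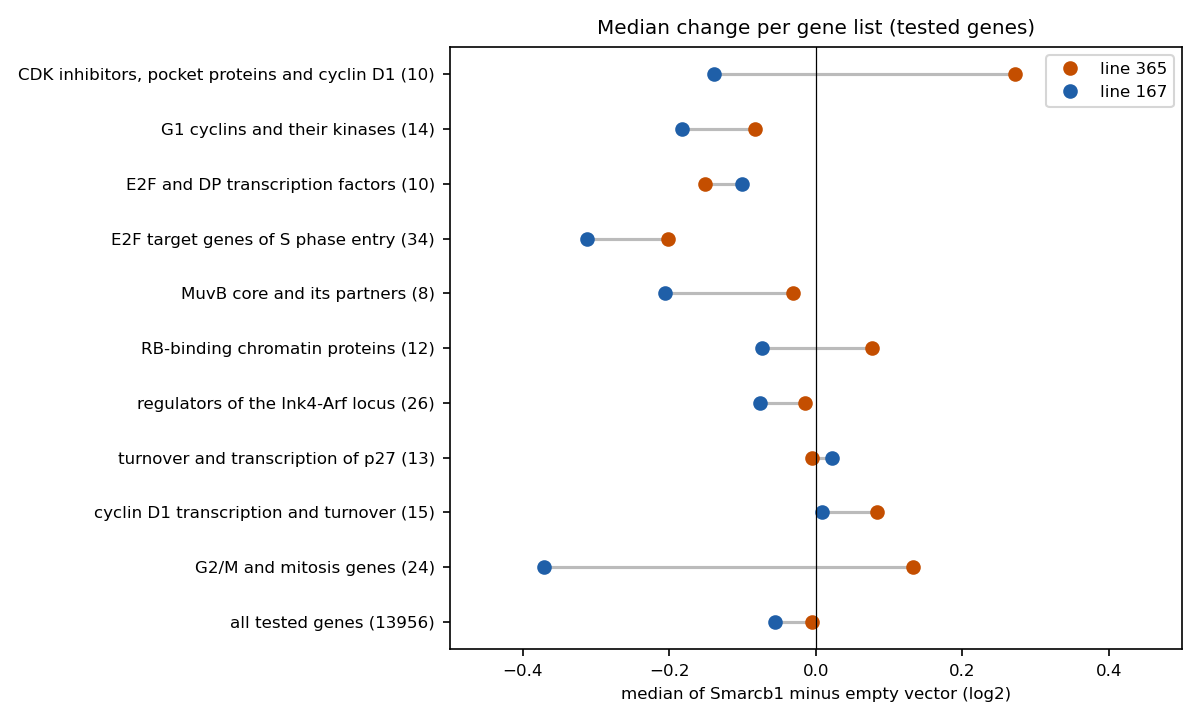
Median of Smarcb1 minus empty vector (log2) over the tested genes of each list, with the number of genes in brackets, orange for line 365 and blue for line 167. The 10 regulators stand at 0.27 in line 365 and -0.14 in line 167, the G2/M list at 0.13 in line 365 and -0.37 in line 167, and all tested genes at -0.01 in line 365 and -0.06 in line 167.

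Regulators of the Ink4-Arf locus had medians of -0.01 (line 365) and -0.08 (line 167) among 26 genes. Hmga2, a chromatin protein known to hold p16Ink4a and p19Arf down in mouse neural stem cells, was at log2 10.44 in line 365 and 8.09 in line 167 with Smarcb1, against 9.57 in line 365 and 7.36 in line 167 with empty vector. It was 0.87 higher with Smarcb1 in line 365 and 0.74 higher in line 167, which did not pass (limma adjusted p = 0.174). Between the lines it differed by 2.28 ± 0.14 (limma adjusted p = 0.00431). Twist1, a transcription factor also known to oppose p16Ink4a, differed the other way, by -1.87 ± 0.24 (limma adjusted p = 0.0191). In this list 2 genes were higher in line 365 and 2 lower past the test, 15.4% of its 26 genes beside 10.9% of all tested genes. The inhibitor of differentiation genes Id1 and Id3 had vector effects of 0.56 and -0.36 (limma adjusted p = 0.337 and 0.441).

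Genes of p27 turnover and transcription had medians of -0.01 (line 365) and 0.02 (line 167) among 13 genes. Past the test of the lines 0 were higher and 2 lower in line 365, 15.4% called beside 10.9% of all tested genes. Foxo3, a transcription factor that activates Cdkn1b, was lower in line 365 (difference -1.08 ± 0.16, limma adjusted p = 0.0274). Skp2, the ligase subunit that marks p27 protein for destruction, was lower there too (difference -0.91 ± 0.16, limma adjusted p = 0.0364). With Smarcb1, Foxo3 gave 0.46 in line 365 and 0.25 in line 167 (limma adjusted p = 0.502), and Skp2 gave -0.37 in line 365 and -0.24 in line 167 (limma adjusted p = 0.537). Foxo4 gave -0.55 in line 365 and -0.42 in line 167 (limma adjusted p = 0.406), and Cops5 gave -0.26 in line 365 and -0.47 in line 167 (limma adjusted p = 0.445).

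The list on cyclin D1 transcription and turnover held the most line differences, 6 of its 15 genes or 40%, beside 10.9% of all tested genes, with 2 higher and 4 lower in line 365. The AP-1 subunit gene Fosl1 was higher in line 365 by 2.22 ± 0.17 (limma adjusted p = 0.00611), the same direction as Ccnd1. Lef1, a WNT pathway factor, was lower (difference -2.22 ± 0.20, limma adjusted p = 0.00871), as was Stat3 (difference -1.11 ± 0.19, limma adjusted p = 0.0330). Cryab, a chaperone that helps the ligase of cyclin D1, was higher by 2.84 ± 0.29 (limma adjusted p = 0.0110). The medians of Smarcb1 minus empty vector were 0.08 (line 365) and 0.01 (line 167).

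The genes whose 4-array pattern lay nearest to a member were found by the Euclidean distance of mean-centred log2 values, for the 4 members with a range of at least 1. Nearest to Cdkn2b were Fam122b (distance 0.074), Tcta (0.089) and Zfp521 (0.117). Nearest to Rbl2 were Zdhhc1 (0.057), Zdhhc8 (0.060) and Mxd3 (0.068), the last a member of the MYC and MAX network. Nearest to Rb1 were Rsbn1 (0.048), Cyth2 (0.073) and Cdipt (0.095), and nearest to Cdkn2c were Itgb2 (0.072), Marcksl1 (0.112) and Plekhm3 (0.118). With 4 arrays from 2 lines, close patterns are found for many genes by the number of genes alone, and the distance is a description.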

How the data were processed

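RNA was measured in 4 samples, 1 whole-transcript array for each of 2 lines and 2 vectors. The authors deposited log2 signals per probe set, which the submitters' processing notes credit to RMA and Affymetrix Expression Console. Versions, settings and the build of the genome were not given in the sources used. RMA quantile-normalizes the arrays, so a change of total RNA per cell cannot be seen.

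Symbols came from the platform annotation. It gives 1 symbol for 21789 of 35556 probe sets and several for 1621, and 12146 are unnamed here. Entrez identifiers of 21698 were found in RefSeq (GRCm38.p6), with 0 symbols to update. Genes below the 30th percentile of means were not tested.

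The fit used limma 3.58.1 in R 4.3.3 (lmFit, eBayes with an intensity trend) with a term for the line and a term for the vector, two-sided p-values and Benjamini-Hochberg adjustment over 13956 genes. The residual has 1 degree of freedom, the unequal response of the lines, to which eBayes added 3.75, so the moderated SE is the same for both terms of a gene. For the vector term the only replication is that of 2 lines. For the line term it is the 2 vector cultures of each line, and the lines themselves are not replicated. Line calls are therefore set against the unequal response of the lines, not against spread between tumours or between like cultures. Values of 1 line or 1 vector have no test. The lines pair the arrays, and same-line arrays shared their deviations from the vector means (correlation 0.770 across genes). On simulated data of 13956 genes with 200 changed (20 runs), the vector test recovered 16% of 2-fold changes, 91% of 4-fold, 99.2% of 8-fold and 99.8% of 16-fold changes. The number of arrays limits the precision.

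The 10 genes and all lists were chosen with earlier results of these data known. Besides the 10 genes and Smarcb1, the text names from each list members among the 4 of smallest p for the vector and the 2 of smallest p for the line. Apart from Vim, the cell type markers given with values were singled out after their values were seen. Alternatives were no filter, a 50th percentile filter, quantile normalization, cyclic loess, no trend, no other factor in the model, the mean of all probe sets, and each line or vector alone.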

Additional observations from a re-analysis of the deposited data

Results flagged for a closer look

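In 8 genes the change with Smarcb1 had opposite signs in the lines, higher in line 365 and lower in line 167, and the difference was not tested, since each line has 1 array per vector. The gap (change in line 365 minus change in line 167, log2) was 0.22 for Cdkn2a, 0.62 for Cdkn2b, 0.35 for Cdkn2d, 0.67 for Cdkn1b, 0.59 for Cdkn1c, 0.38 for Rbl1, 0.55 for Rbl2 and 0.40 for Ccnd1. Cdkn2c, with a gap of 0.89, was higher with Smarcb1 in both lines, but its line difference had opposite signs, at 0.54 with Smarcb1 and -0.36 with empty vector, also untested. Cdkn1c crossed in the same way, at 0.08 with Smarcb1 and -0.51 with empty vector. Over all tested genes 5.36% had a gap of at least 1 either way, and 0 of the 10 did.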

How the results depend on the processing

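The count of the 10 genes past the test of the vector was 0 in every setting with a test, while the count over all tested genes (9) became 68 without the filter, 101 with the 50th percentile filter, 48 after quantile normalization, 49 after cyclic loess and 0 with no replicate block, that is without the line in the model. Between the lines, the count over all genes (1528) became 653 with no replicate block (the vector left out), and the 2 calls among the 10 genes became 1 there and 1 without the intensity trend, where Cdkn2b remained. Rbl2 passed as a line difference in 5 of the 7 other settings. Quantile normalization turned the vector effects of Cdkn2b (0.0296) and Rbl2 (0.0124), and cyclic loess those of Cdkn2a (0.0224), Cdkn2b (0.0411) and Rbl2 (0.0300), all close to 0; the median of all genes shifted by 0.01 and 0.03. With 1 line left out, a value without a test, the vector effect ran from -0.139 to 0.0768 for Cdkn2a, -0.32 to 0.29 for Cdkn2b, -0.14 to 0.21 for Cdkn2d, -0.00583 to 0.661 for Cdkn1b, -0.549 to 0.0426 for Cdkn1c, -0.0842 to 0.299 for Rbl1, -0.30 to 0.25 for Rbl2 and -0.19 to 0.21 for Ccnd1. With 1 vector left out, the line difference ran from -0.36 to 0.54 for Cdkn2c and from -0.508 to 0.0837 for Cdkn1c. The cause of these changes was not tested.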
